A study of Anser cygnoides with 6 samples.

Results

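The genes described here encode potassium channels, voltage-gated calcium channels, calcium release channels, store-operated calcium entry proteins and calcium pumps, in the ovary of the swan goose, Anser cygnoides. They were chosen by symbol, as genes of the KCN and CACNA, CACNB and CACNG series, RYR, ITPR, ORAI and STIM genes, and ATP2A and ATP2B pumps. This gave 112 of the 14696 genes measured, of which 77 belong to potassium channels and 35 to calcium channels and pumps. Of these, 69 reached 1 FPKM (sequenced fragments per transcript kilobase, scaled by a library's mapped fragments) in at least 3 of the 6 libraries and were tested, 45 of potassium channels and 24 of calcium channels and pumps. The other 43 stayed below this limit.

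Potassium channels let potassium leave the cell and hold the membrane at rest, and voltage-gated calcium channels open when that hold is lost. The calcium that enters, or that is released from the endoplasmic reticulum, drives contraction in smooth muscle and secretion in endocrine cells, and pumps return it to the reticulum or to the outside. In the ovary of a bird these genes act in several cell types at once, among them the smooth muscle of follicle walls and blood vessels, granulosa and theca cells, and oocytes.

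Ovary RNA was sequenced for the 2 stages the labels name, broody and reproductive, with 3 libraries each. All geese were raised to 40 weeks of age under 11 h of light and 13 h of dark. The broody geese had in addition undergone forced moulting and short illumination, so stage and treatment cannot be told apart. Nothing in the labels gives a batch, says which region of the ovary was taken or ties a library to its own bird. A p-value here therefore reflects the spread among these libraries alone, which may be technical. The series' design text names oviduct where the sample labels name ovary. Of the oocyte markers, 10 of 14 were in the table under their symbols, and all 10 were present in every library. Of 8 oviduct markers 2 were found, LYZ at 0.216 to 1.40 FPKM and TF at 0.969 to 71.1 FPKM, with its highest value in reproductive 2.

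The libraries also differed in the genes that mark cell types. The summed level of 9 smooth muscle markers was 332 to 988 FPKM in broody and 3209 to 7056 FPKM in reproductive libraries. All 9 were lower in broody ovaries, with differences of -3.91 to -1.04 on the log2 scale. The 10 oocyte markers were all higher, at 1688 to 2027 against 217 to 949 FPKM summed. Macrophage markers were lower for 8 of 8 genes, at 229 to 397 against 549 to 1018 FPKM. Granulosa markers were higher for 4 of 7 tested genes, at 395 to 502 against 125 to 244 FPKM. AMH was the largest part of the broody sums, at 202 to 295 FPKM, and INHA, which was not tested, stayed at or below 0.0472 FPKM in every library. Among 7 endothelial markers 5 fell and 1 rose, with sums of 86.7 to 107 against 160 to 209 FPKM. Theca markers were lower for 3 of 6 genes, at 243 to 560 against 591 to 898 FPKM, while without DCN, which other stromal cells also express, the sums overlapped at 84.8 to 306 against 151 to 335 FPKM. Nerve markers were higher for 3 of 5 tested genes, at 224 to 251 against 103 to 155 FPKM, of which UCHL1, a gene that other cells also express, made up most. Lymphocyte markers were lower for 2 of 6 tested genes, and their sums overlapped, at 20.7 to 44.6 against 38.8 to 53.0 FPKM. Striated muscle markers were near absent, with 4 of 8 found and a summed level of 1.14 to 3.61 FPKM. Of 7 red blood cell markers only SLC4A1 was found, at 0.123 to 2.29 FPKM. No marker that was found was listed at 0 in every library. In whole tissue, fewer cells of a type and less RNA per cell cannot be told apart, and the part of these cell types in the differences below was not tested.

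The comparison asked which channel and pump genes differ between the broody and the reproductive ovary. On the log2(FPKM + 1) scale the largest decreases were those of the potassium channel genes KCNMB1, KCNJ8 and KCNMA1, at 0.176, 0.302 and 0.339 times their reproductive mean. The accessory subunit gene KCNE4 fell by nearly as much as KCNMA1, to 0.340 times. As a ratio of means, the low genes KCNQ5 and KCNMB2 stood at 0.295 and 0.324. The largest increases on the log2(FPKM + 1) scale were those of the voltage-gated KCND2 and the tandem-pore KCNK2 and KCNK12, at 3.65, 2.76 and 2.79 times their reproductive mean. As a ratio of means, the low genes CACNA1I, KCNJ3 and KCNV1 stood at 3.99, 3.53 and 3.17. KCNJ3 passed the filter only through the broody libraries, so its ratio is no support. None of the 5 calcium pump genes tested was called by limma, and 1 of them, ATP2A3, had an unadjusted p under 0.05. Across the 69 tested genes 22 were higher and 10 lower in broody ovaries (limma on log2(FPKM + 1), Benjamini-Hochberg adjusted p under 0.05 over all 11377 genes tested). Over all genes tested 29.9% were higher and 12% lower, and 41.9% were called in either direction. The shares among the channel and pump genes, 31.9% higher and 14.5% lower, lay near this background. By class, 17 of 45 potassium channel genes were higher and 7 lower, against 5 and 3 of 24 calcium genes. These counts include KCNJ3 as higher and KCNK13 as lower, which passed the filter only through the group in which they were high.

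The median difference of the 69 genes was 0.08, against 0.23 for all genes tested. Median-ratio scaling of the libraries brought the median of all genes to 0.00 and that of the channel and pump genes to -0.05, and the calls to 14 higher and 14 lower, where 16.7% and 18.8% of all genes were higher and lower. The groups did not overlap for 35 of the 69 genes, 23 higher and 12 lower in broody, where all genes tested gave 59.5%, of which 41.3% were higher and 18.2% lower. Without broody 1, and likewise without broody 2, no channel or pump gene passed, with adjusted p of 0.0508 to 0.130 for the 32 called genes by limma, while 30 and 33 members had an unadjusted p under 0.05. Over all genes tested, 1 passed in either case. With the replicate number as a block 16 were higher and 7 lower, where all genes gave 19.6% and 8.33%. In KCNMB1, KCNJ8, KCNMA1, KCNE4, KCND2, KCNK2, KCNK12, KCNAB1, CACNA2D3, KCNMB4, KCNV1 and KCNK17 the call held under every other alternative that could give a value. KCNJ3 and KCNK13 kept theirs too, but passed the filter only through the group in which they were high, so their calls are no support. Median-ratio and upper-quartile scaling each ended the calls of CACNA1B, KCNF1, KCNG4, KCNH1, KCNJ5, KCNK5, KCNN1 and STIM2, and quantile normalization those of the same genes apart from KCNJ5 and STIM2. Fitting the leading transcript of each gene ended the calls of CACNA1B, CACNA1C, KCNF1, KCNK5 and KCNN1 (limma adjusted p of 0.0647 to 0.0724), although these genes have 1 transcript each and their differences did not move. It also ended those of KCNH1, KCNJ5 and RYR3, which have more, at 0.48, 0.73 and -1.10 (adjusted p = 0.0804, 0.107 and 0.0809). Using no filter ended the calls of CACNA1C, KCNF1, KCNK5 and KCNN1 (0.0530 to 0.0602). Calls ended by the block or by leaving out 1 library are given with their genes.

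**Figure D1:**
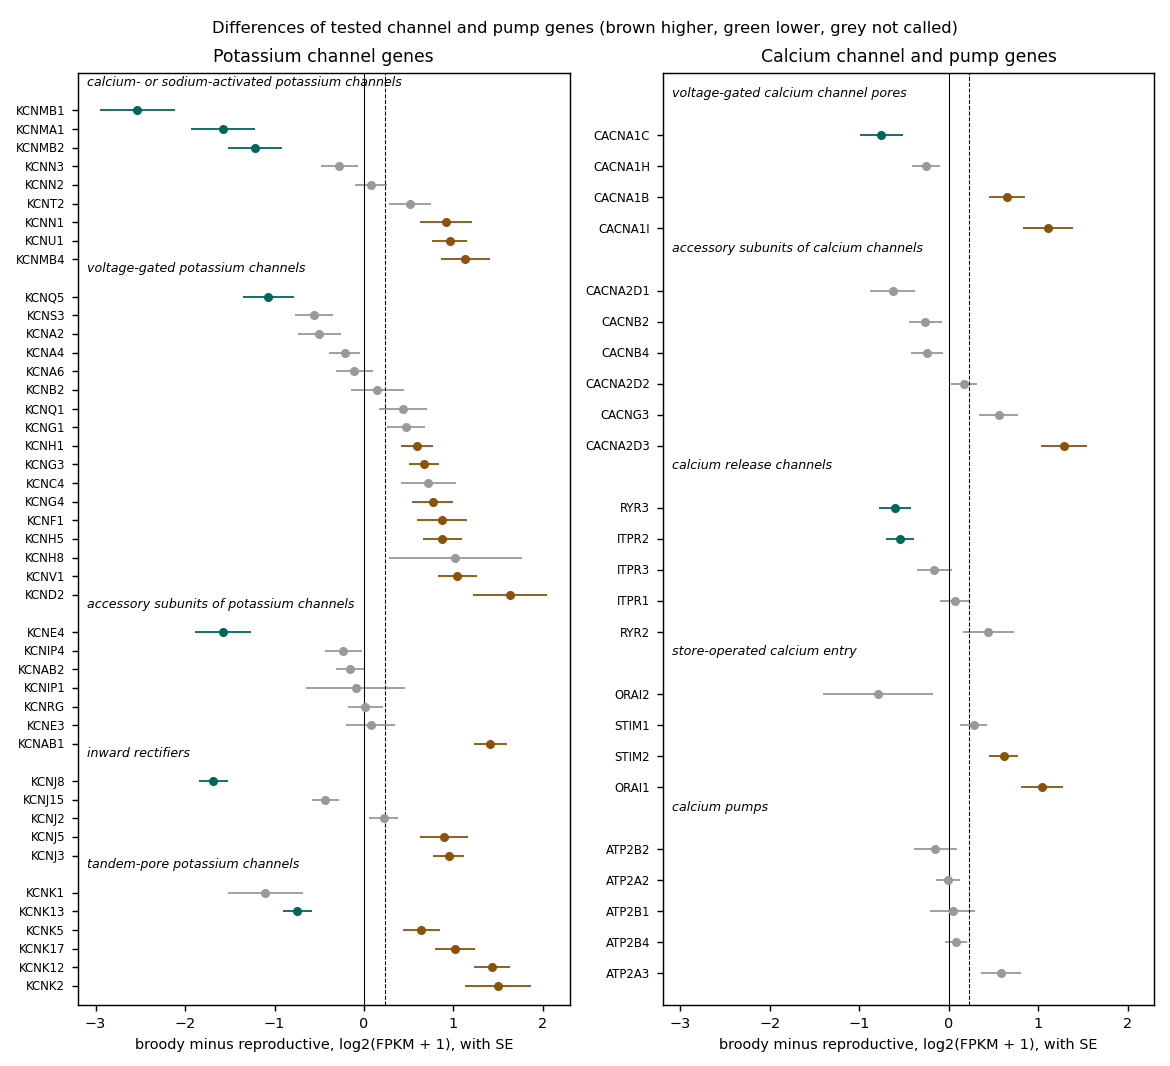
Differences of the tested genes, 1 of the 69 not shown, broody minus reproductive in log2(FPKM + 1), with its standard error and grouped by role. Brown points were higher, green points lower and grey points not called by limma; the dashed line is the median of all genes tested, 0.23. Within most roles genes lie on both sides of 0, from KCNMB1 at -2.53 to KCND2 at 1.63.

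The large-conductance calcium-activated potassium channel opens on calcium and voltage together and damps contraction in smooth muscle. Its pore gene KCNMA1 (106032783) had 4.98, 8.42 and 15.7 FPKM in broody 1 to 3 and 26.9, 35.3 and 23.6 FPKM in reproductive 1 to 3. Every broody library lay below every reproductive one, and broody 3 was the closest to them. KCNMA1 fell by 1.58 ± 0.36 (SE) on the log2 scale, with a limma adjusted p of 0.0186. KCNMB1 (106034329), the beta subunit that raises the channel's calcium sensitivity in smooth muscle, had 25.2, 26.7 and 65.3 FPKM in broody and 164, 337 and 166 FPKM in reproductive libraries. It had the highest level of all 112 genes in reproductive ovaries, 222 ± 99.2 FPKM (SD, n = 3), and fell by 2.53 ± 0.42 to 39.0 ± 22.7 FPKM (limma adjusted p = 0.0145). KCNMB2 (106032022), a beta subunit that makes the channel inactivate, had 0.928, 1.99 and 2.43 FPKM in broody and 4.97, 7.88 and 3.66 FPKM in reproductive libraries. The groups did not overlap and it fell by 1.22 ± 0.30 (limma adjusted p = 0.0216), a call that ended when only the leading transcript of each gene was used (adjusted p = 0.401).

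KCNMB4 (106045389), a beta subunit known from mammalian nerve cells, went the other way. It had 8.78, 10.9 and 7.54 FPKM in broody and 3.31, 2.29 and 5.61 FPKM in reproductive libraries, all broody libraries lying above all reproductive ones, and it rose by 1.13 ± 0.27 (limma adjusted p = 0.0201). Within a library, where scaling cancels, the level of KCNMB1 was 2.45 to 8.66 times that of KCNMB4 in broody ovaries and 29.5 to 147 times in reproductive ovaries. The level of KCNMB4 was 0.480 to 1.76 times that of the pore KCNMA1 in broody and 0.0650 to 0.237 times in reproductive ovaries. These ratios were formed after the values were seen and carry no test. Neither ratio overlapped between the groups. That was fixed by the values above, as KCNMB4 was higher, and KCNMB1 and KCNMA1 lower, without overlap. Broody 3 had the broody values of both ratios closest to the reproductive ones. The ratio of KCNMB1 to KCNMA1, also formed after the values were seen, was 3.17 to 5.06 in broody and 6.10 to 9.54 in reproductive ovaries. In that ratio broody 1 was the closest, with broody 3 at 4.15.

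The relatives of this channel were higher or not called. KCNU1 (106044417), whose mammalian counterpart is a sperm channel opened by alkaline pH, had 5.04, 4.38 and 4.0 FPKM in broody and 2.58, 1.44 and 1.54 FPKM in reproductive libraries, with no overlap. It rose by 0.96 ± 0.19 (limma adjusted p = 0.0173), but its leading transcript alone gave -0.23 (adjusted p = 0.830). KCNN1, a small-conductance channel opened by calcium alone, had 4.67 to 6.97 FPKM in broody and 1.26 to 3.70 FPKM in reproductive libraries and rose by 0.92. That call ended under median-ratio scaling (0.72, adjusted p = 0.0675), and without broody 3, reproductive 1 or reproductive 2 (adjusted p = 0.0633, 0.0652 and 0.0597), the last of which brought the difference to 0.61. KCNN2, KCNN3 and KCNT2 had differences of 0.08, -0.27 and 0.52 and were not called. KCNN3 (106048530), the small-conductance channel of vessel walls in mammals, had 0.494, 1.03 and 1.21 FPKM in broody and 1.33, 1.58 and 0.973 FPKM in reproductive libraries, and the groups overlapped.

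KCNJ8 (106038292) encodes the inward rectifier pore of the ATP-sensitive potassium channel of vascular smooth muscle and pericytes. It had 19.2, 21.0 and 25.7 FPKM in broody and 84.5, 67.3 and 66.8 FPKM in reproductive libraries. The libraries of each group lay close together and far from the other group. KCNJ8 fell by 1.69 ± 0.16 and had the smallest adjusted p of all members, 0.00820 by limma. KCNE4 (106036275), a small accessory subunit that inhibits some voltage-gated potassium channels, had 6.97, 12.5 and 18.9 FPKM in broody and 38.7, 32.8 and 41.3 FPKM in reproductive libraries. Its broody libraries were spread widely but all lay below the reproductive ones, and it fell by 1.58 ± 0.31 (limma adjusted p = 0.0171).

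KCNQ5 (106030367), a slow voltage-gated channel found in smooth muscle and nerve, had 1.02, 0.752 and 1.27 FPKM in broody and 2.51, 5.60 and 2.20 FPKM in reproductive libraries. It was the only voltage-gated potassium channel gene that fell, by 1.07 ± 0.29 (limma adjusted p = 0.0253), and its leading transcript alone gave -0.02 (adjusted p = 0.981). KCNK13 (106036758), a tandem-pore channel that mammalian microglia use, had 0.567, 0.344 and 0.719 FPKM in broody and 1.58, 1.78 and 1.39 FPKM in reproductive libraries and fell by 0.75 ± 0.16 (limma adjusted p = 0.0182). It reached 1 FPKM only in the reproductive libraries, so it passed the filter through the group in which it was high. With a pseudocount of 0.1 its difference was -1.43.

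**Figure D2:**
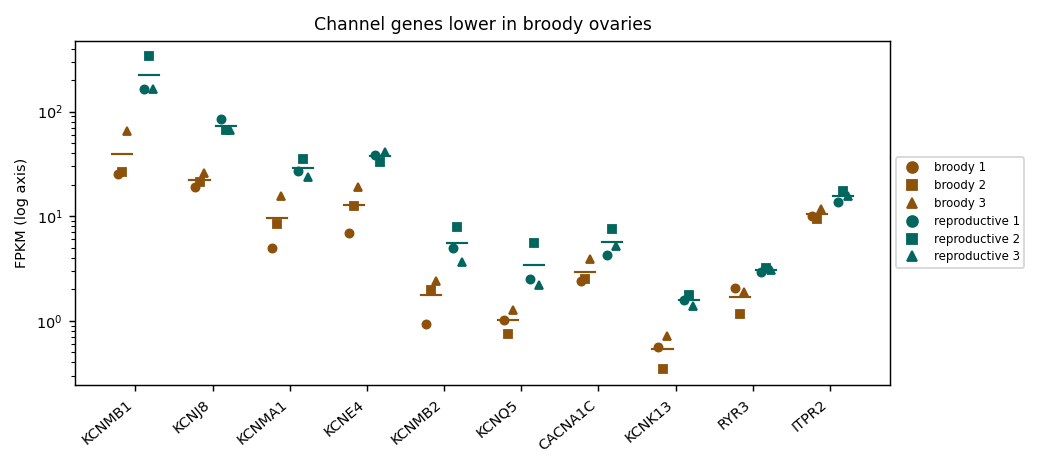
FPKM on a log axis in each of the 6 libraries for the 10 channel genes lower in broody ovaries; symbols mark the library, and bars are group means. No gene's broody and reproductive libraries overlap, and broody 3 is the highest broody library for all of them except RYR3. These genes were picked as called lower, and 18.2% of all genes tested were lower without overlap. KCNK13 passed the filter only through the reproductive libraries.

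Tandem-pore potassium channels carry the background leak that sets the resting potential. Of 6 tested, 4 were higher, 1 lower and 1 not called, where 29.9% and 12% of all genes were higher and lower. The lower gene was KCNK13, whose call is no support, and among the higher ones the call of KCNK5 ended under several settings. KCNK2 (106031574), a leak channel opened by stretch and lipids, had 57.9, 56.3 and 35.9 FPKM in broody and 20.2, 8.85 and 25.3 FPKM in reproductive libraries. KCNK12 (106043134), a channel that is largely silent on its own, had 31.3, 36.9 and 30.1 FPKM in broody and 11.9, 8.58 and 14.7 FPKM in reproductive libraries. KCNK17 (106048245), a channel opened by alkaline pH outside the cell, had 23.6, 24.3 and 18.4 FPKM against 9.38, 8.16 and 14.4 FPKM. In all 3 genes every broody library lay above every reproductive one, with increases of 1.50 ± 0.37, 1.43 ± 0.20 and 1.02 ± 0.22 and limma adjusted p of 0.0213, 0.0125 and 0.0182.

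KCNK5, which also responds to pH, lies next to the gene listed as KCNK17 in the reference assembly. KCNK5 had 23.7 to 24.7 FPKM in broody and 11.9 to 21.1 FPKM in reproductive libraries. It rose by 0.64, a call that ended with the replicate number as a block (adjusted p = 0.0655) and without broody 3, reproductive 1 or reproductive 2 (adjusted p = 0.0856, 0.101 and 0.0841). Under median-ratio scaling its difference was 0.40 (adjusted p = 0.0878). KCNK1, a weak leak channel, had 5.76, 11.3 and 17.0 FPKM in broody and 35.6, 14.4 and 25.4 FPKM in reproductive libraries, which overlapped, and its difference of -1.10 was not called (limma adjusted p = 0.0662). Summed over the 11 tandem-pore genes the level was 127 to 157 FPKM in broody and 56.1 to 103 FPKM in reproductive ovaries.

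Of 18 voltage-gated potassium channel genes tested 7 were higher and 1 lower, or 38.9% and 5.56%, near the 29.9% and 12% of all genes. KCND2 (106044533), the pore of a fast inactivating current, had 27.5, 40.1 and 12.5 FPKM in broody and 8.21, 4.70 and 9.05 FPKM in reproductive libraries. Its broody libraries differed among themselves by 3.21 times, but the lowest still lay above the highest reproductive library, and it rose by 1.63 ± 0.41 (limma adjusted p = 0.0221). KCNV1 (106035242), a silent subunit that modifies other channels, had 2.42, 3.74 and 2.76 FPKM in broody and 1.27, 0.477 and 1.06 FPKM in reproductive libraries and rose by 1.05 ± 0.22 (limma adjusted p = 0.0177). The other voltage-gated genes that rose had at most 3.31 FPKM in any library.

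Among them KCNF1, KCNG3 and KCNG4 are also silent subunits, with increases of 0.87, 0.67 and 0.77. KCNH1 and KCNH5, pores of the ether-a-go-go family, rose by 0.60 and 0.88. KCNF1 was the member among the 32 called whose groups overlapped, with 1.59 to 3.05 FPKM in broody and 0.561 to 1.71 FPKM in reproductive libraries. Each of these 5 calls ended under some setting. KCNH5 ended without broody 3 (adjusted p = 0.0532), and its leading transcript alone gave 0.14 (adjusted p = 0.795), while KCNG3 ended without reproductive 1 (adjusted p = 0.0519) and with the replicate block (adjusted p = 0.0506). KCNG4 ended without reproductive 2 or reproductive 3 (adjusted p = 0.0795 and 0.0791), and KCNF1 without reproductive 1 or reproductive 2 (adjusted p = 0.109 and 0.102). KCNH1 ended without broody 3, reproductive 1 or reproductive 2 (adjusted p = 0.0647, 0.0781 and 0.0859), and both KCNF1 and KCNH1 with the replicate block (adjusted p = 0.0848 and 0.0774). Under median-ratio scaling KCNF1, KCNG4 and KCNH1 ended too (adjusted p = 0.0651, 0.0813 and 0.0676).

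The other voltage-gated genes tested were not called. KCNQ1 (106042607), which pairs with KCNE subunits in epithelia and heart, had 9.82, 16.3 and 17.1 FPKM in broody and 8.96, 8.17 and 14.0 FPKM in reproductive libraries, and the groups overlapped. KCNA2, KCNA4, KCNA6 and KCNB2 had differences of -0.50 to 0.15 and had at most 2.99 FPKM. KCNG1 and KCNC4 were at 0.47 and 0.72 and KCNS3, a silent subunit, at -0.56. KCNH8 is described among the other observations for its spread within both groups.

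**Figure D3:**
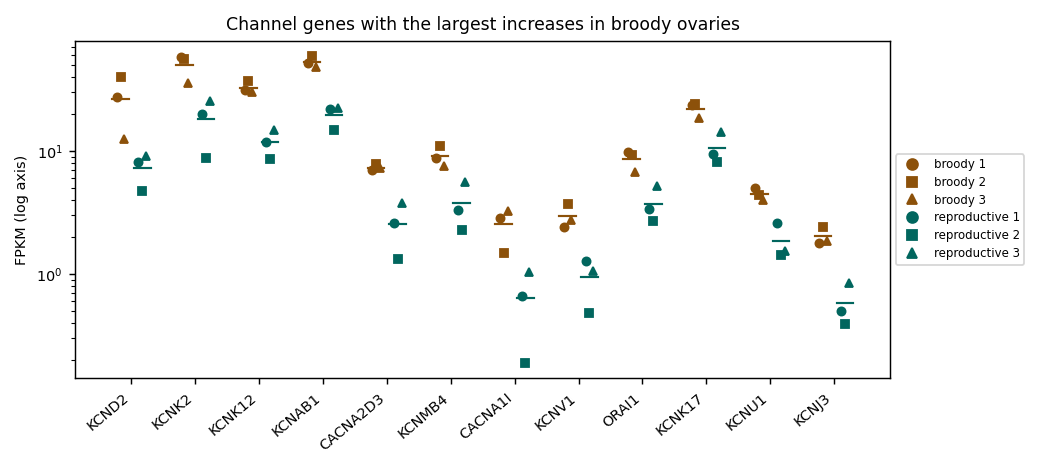
FPKM on a log axis in each of the 6 libraries for the 12 called channel genes with the largest increases on the log2(FPKM + 1) scale; symbols mark the library, and bars are group means. Every broody library lies above every reproductive library of the same gene, as for 41.3% of all genes tested. These genes were picked for their increases, and KCNJ3 passed the filter only through the broody libraries. Broody 3 is the lowest broody library for all of them except CACNA1I, CACNA2D3, KCNJ3 and KCNV1.

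Among accessory subunits of potassium channels, KCNAB1 (106043533) was the member that rose. It encodes a cytoplasmic beta subunit that speeds inactivation of voltage-gated channels. It had 51.8, 59.2 and 48.6 FPKM in broody and 21.9, 14.7 and 22.2 FPKM in reproductive libraries; the groups lay far apart. KCNAB1 rose by 1.41 ± 0.18 (limma adjusted p = 0.0119) and ranked second in level among all members in broody ovaries and eleventh in reproductive ovaries. KCNE3, KCNAB2, KCNIP1, KCNIP4 and KCNRG had differences of -0.23 to 0.07 and were not called.

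KCNJ3 and KCNJ5 encode inward rectifier subunits that G proteins open and that join in one channel in the heart. KCNJ3 (106043876) had 1.79, 2.43 and 1.87 FPKM in broody and 0.498, 0.389 and 0.839 FPKM in reproductive libraries and rose by 0.95 ± 0.18 (limma adjusted p = 0.0165). It passed the filter through the broody libraries alone, and a pseudocount of 0.1 gave 1.70. KCNJ5 had 2.66 to 3.31 FPKM in broody and 0.487 to 2.11 FPKM in reproductive libraries and rose by 0.89, a call that ended without broody 3, reproductive 1 or reproductive 2 (adjusted p = 0.0719, 0.0840 and 0.0707), with the replicate block (0.0560) and with median-ratio scaling (0.0567). Both partners stood at low levels. KCNJ2, the classical inward rectifier, was not called at 0.22, and KCNJ15 had -0.43 (limma adjusted p = 0.0577) with no overlap between the groups. KCNJ15 reached 1 FPKM only in the reproductive libraries, so it passed the filter through the group in which it was high, and its values are no support.

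Of the voltage-gated calcium channel pores 4 were tested. CACNA1C (106030933), the L-type pore that admits the calcium for smooth muscle contraction, had 2.39, 2.51 and 3.88 FPKM in broody and 4.23, 7.56 and 5.20 FPKM in reproductive libraries. The groups did not overlap, and CACNA1C fell by 0.75 ± 0.24 (limma adjusted p = 0.0392). That call ended without reproductive 2 or reproductive 3 (adjusted p = 0.0863 and 0.0614) and with the replicate block (0.0569). CACNA1I (106035798), a T-type pore that opens at low voltage, had 2.84, 1.48 and 3.25 FPKM in broody and 0.665, 0.189 and 1.04 FPKM in reproductive libraries. It rose by 1.11 ± 0.28 (limma adjusted p = 0.0219), or by 1.98 with a pseudocount of 0.1, and missed the threshold without broody 3 (adjusted p = 0.0585). CACNA1B, the N-type pore of nerve endings, had 1.76 to 2.98 FPKM in broody and 1.02 to 1.60 FPKM in reproductive libraries and rose by 0.65. That increase missed the threshold without broody 3, reproductive 1 or reproductive 2 (adjusted p = 0.101, 0.0942 and 0.0836), with the replicate block (0.0533) and with median-ratio scaling (0.0756).

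CACNA1H (106032121), another T-type pore, had 3.63, 3.62 and 4.72 FPKM in broody and 5.0, 5.13 and 4.68 FPKM in reproductive libraries and was not called. Summed over the 9 pore genes the level overlapped, at 11.7 to 17.1 FPKM in broody and 12.5 to 15.9 FPKM in reproductive libraries. Within this sum CACNA1C was lower and CACNA1B higher in broody ovaries, although both calls ended under some settings. CACNA1C stood at 0.802 to 1.43 times the level of CACNA1B in broody ovaries and at 3.24 to 7.06 times in reproductive ovaries, a ratio formed after the values were seen. Since CACNA1C was lower and CACNA1B higher without overlap, this ratio could not overlap between the groups.

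The alpha2delta subunits carry the pore to the membrane. CACNA2D3 (106040528) had 6.96, 7.80 and 7.25 FPKM in broody and 2.60, 1.31 and 3.76 FPKM in reproductive libraries and rose by 1.29 ± 0.26 (limma adjusted p = 0.0172). CACNA2D1 (106035544), the form of smooth and striated muscle, had 31.2, 33.7 and 31.7 FPKM in broody and 35.6, 75.7 and 47.0 FPKM in reproductive libraries. Its groups did not overlap either, but the reproductive libraries differed widely, and the difference of -0.63 ± 0.25 was not called (limma adjusted p = 0.0806). It passed without reproductive 1 (-0.87, adjusted p = 0.0394) and under median-ratio scaling (-0.88, adjusted p = 0.0472). CACNB2 (106030338), a beta subunit inside the cell, had 10.5, 13.2 and 10.5 FPKM in broody and 11.1, 16.7 and 14.1 FPKM in reproductive libraries and was not called at -0.26. CACNA2D2, CACNB4 and CACNG3 were not called either, with differences of 0.17, -0.25 and 0.56.

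Calcium release channels open in the membrane of the endoplasmic reticulum. ITPR1 (106036713), the inositol trisphosphate receptor with the highest level, had 44.4, 53.6 and 43.1 FPKM in broody and 39.1, 52.4 and 43.5 FPKM in reproductive libraries. The groups overlapped throughout, and the difference was 0.07, with a 95% interval of -0.30 to 0.44 on the log2 scale. That interval holds only for FPKM without further scaling, and median-ratio scaling gave ITPR1 a difference of -0.19 ± 0.17 (SE). ITPR2 (106038242), a sister receptor, had 9.97, 9.45 and 11.8 FPKM in broody and 13.6, 17.6 and 15.7 FPKM in reproductive libraries and fell by 0.54 ± 0.16 (limma adjusted p = 0.0306). ITPR3 (106046157) had 1.29, 1.36 and 2.33 FPKM against 2.33, 1.82 and 1.69 FPKM, which overlapped. So of the 3 receptors the middle one in level was called.

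The ryanodine receptors open on calcium itself. RYR3 (106031696) had 2.05, 1.16 and 1.90 FPKM in broody and 2.90, 3.19 and 3.08 FPKM in reproductive libraries and fell by 0.60 ± 0.18 (limma adjusted p = 0.0335). RYR2 (106048956), the form of heart muscle, had 3.97, 4.86 and 3.83 FPKM in broody and 3.11, 1.48 and 4.48 FPKM in reproductive libraries, overlapped and was not called at 0.44. The calls of RYR3 and ITPR2 ended without reproductive 2 (adjusted p = 0.0677 and 0.0625) or reproductive 3 (0.0595 and 0.0535) and with the replicate block (0.0665 and 0.0649). That of RYR3 also ended without broody 3 (0.0591) or reproductive 1 (0.0621).

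Store-operated entry refills the reticulum: STIM proteins sense its calcium and open ORAI pores in the outer membrane. ORAI1 (106031142), the main pore, had 9.75, 9.31 and 6.76 FPKM in broody and 3.35, 2.68 and 5.15 FPKM in reproductive libraries. It rose by 1.04 ± 0.23 (limma adjusted p = 0.0185) with no overlap, and its leading transcript alone gave 0.72 (adjusted p = 0.136). STIM1 (106048574) had 5.53, 5.92 and 5.50 FPKM in broody and 4.36, 3.93 and 5.21 FPKM in reproductive libraries. STIM2, the sensor that responds to small losses of calcium, had 8.68 to 10.5 FPKM against 4.97 to 6.82 FPKM. All broody libraries lay above all reproductive ones for both sensors, but only STIM2 rose, by 0.62 (limma adjusted p = 0.0244), and STIM1 was not called at 0.28 (adjusted p = 0.167). Whether the 2 sensors differ from each other was not tested. The STIM2 call ended under median-ratio scaling, where the difference was 0.39 (adjusted p = 0.0615), and with the replicate block (0.0556). It also ended with the leading transcript alone, which gave 0.25 (limma adjusted p = 0.407). ORAI2 was not called at -0.79.

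No calcium pump was called. ATP2A2 (106031415), the pump that returns calcium to the reticulum in most cells, had 60.0, 60.6 and 62.3 FPKM in broody and 69.5, 56.1 and 58.8 FPKM in reproductive libraries. Its difference was -0.01 with a 95% interval of -0.31 to 0.30, so changes beyond about 0.31 on the log2 scale lay outside the interval. This bound holds only for FPKM without further scaling. Median-ratio scaling moved the median of all genes from 0.23 to 0.00, and an interval for ATP2A2 under that scaling is not given here. ATP2B1 (106036919), the common pump of the outer membrane, had 38.7, 43.5 and 43.7 FPKM in broody and 57.9, 27.8 and 41.6 FPKM in reproductive libraries. ATP2B4 (106045871) had 20.1, 17.9 and 19.1 FPKM against 18.3, 16.7 and 18.7 FPKM. The groups of all 3 pumps overlapped, and the differences of ATP2B1 and ATP2B4, 0.04 and 0.08, turned negative under each of the 3 scalings tried. ATP2A3 (106041464), the pump of blood and lining cells, had 4.28, 7.03 and 6.08 FPKM in broody and 4.42, 2.56 and 3.61 FPKM in reproductive libraries and was not called at 0.59 (limma adjusted p = 0.0706). ATP2B2 was not called at -0.15.

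Summed by role, the levels moved in different directions. The calcium- or sodium-activated potassium channels came to 61.2 to 107 FPKM in broody and 210 to 393 FPKM in reproductive libraries, with KCNMB1 the largest contributor in each. Inward rectifiers came to 31.3 to 38.9 against 75.4 to 94.6 FPKM, most of it KCNJ8. Voltage-gated potassium channels came to 79.5 to 118 against 59.3 to 64.8 FPKM. These roles did not overlap between the groups, nor did the tandem-pore channels. The pumps overlapped at 138 to 155 against 130 to 165 FPKM, as did the release channels at 61.7 to 70.5 against 61.0 to 76.4 FPKM and the store-operated genes at 28.1 to 39.8 against 21.5 to 34.1 FPKM. Sums are governed by their most abundant gene and carry no test.

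**Figure D4:**
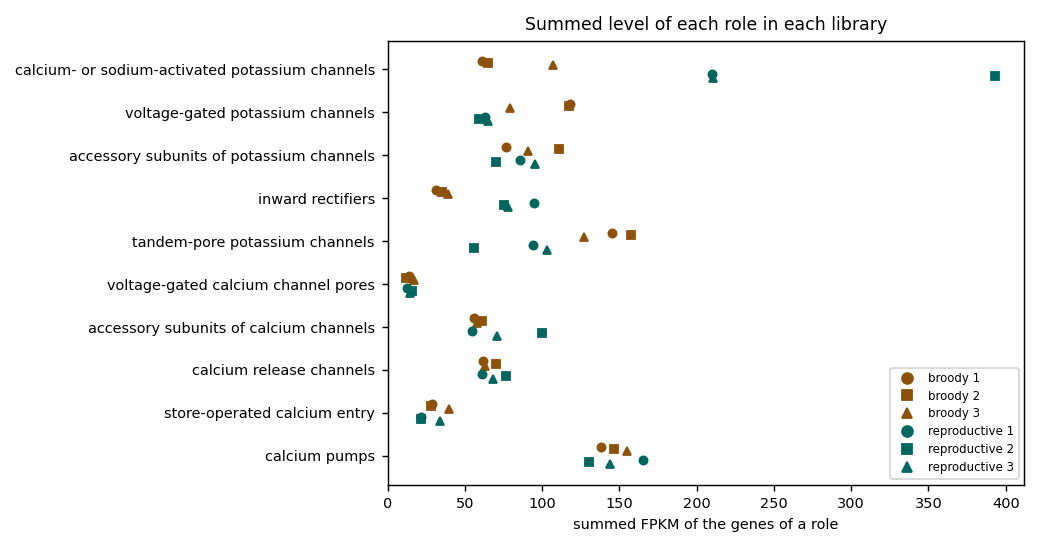
Summed FPKM of the genes of each role in each of the 6 libraries (all 112 genes; symbols mark the library). Activated channels and inward rectifiers lie lower in broody libraries, tandem-pore and voltage-gated potassium channels lie higher, and the calcium roles overlap.

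The order of levels differed between the groups. In reproductive ovaries KCNMB1 led, followed by KCNJ8 at 72.8 ± 10.1, ATP2A2 at 61.5 ± 7.10, CACNA2D1 at 52.7 ± 20.7 and ITPR1 at 45.0 ± 6.76 FPKM (SD, n = 3). Apart from KCNMB1, neighbours in this order overlapped in their libraries. In broody ovaries ATP2A2 led at 61.0 ± 1.17 FPKM, followed by KCNAB1 at 53.2 ± 5.45, KCNK2 at 50.03 ± 12.3, ITPR1 at 47.1 ± 5.73 and ATP2B1 at 42.0 ± 2.83 FPKM. ATP2A2 lay above all KCNAB1 libraries, while the 4 genes after it overlapped with their neighbours. FPKM are per length, so these are comparisons of level between genes.

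Library positions within a group were much alike among the called genes. In 9 of the 10 genes that fell broody 3 was the highest broody library, as in 77.9% of all genes that fell, and in 8 of them reproductive 2 was the highest reproductive one, as in 62.4%. In 19 of the 22 genes that rose reproductive 2 was the lowest reproductive library, as in 85.7% of all genes that rose. Within the broody group smooth muscle markers were highest in broody 3. Within the reproductive group their sum was highest in reproductive 2, while ACTG2 and CALD1 were highest in reproductive 1. Oocyte markers were lowest in reproductive 2. Without broody 3 there were 15 higher and 12 lower, where all genes gave 16.9% and 9.48%. Without reproductive 2 there were 15 higher and 8 lower, against 21.9% and 9.15% of all genes.

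The 43 genes below the limit were at most 2.19 FPKM in any library, and 39 stayed under 1 FPKM throughout. They include most inward rectifiers (KCNJ1, KCNJ4, KCNJ6, KCNJ9, KCNJ10, KCNJ11, KCNJ12, KCNJ13 and KCNJ16) and the accessory subunits KCNE1, KCNE2, KCNIP2, KCNIP3, CACNA2D4, CACNG1, CACNG2, CACNG4 and CACNG5. Among pores they include KCNA10, KCNC1, KCNC2, KCND3, KCNG2, KCNH4, KCNH6, KCNH7, KCNQ3, KCNS1, KCNS2, KCNV2, KCNT1, KCNK9, KCNK10, KCNK15 and KCNK18. CACNA1D (106048937), an L-type pore of endocrine cells, had 0.764, 0.704 and 0.796 FPKM in broody and 0.504, 0.618 and 0.778 FPKM in reproductive libraries. CACNA1G (106034761), a T-type pore, had 0.649, 0.893 and 0.762 FPKM against 0.366, 0.249 and 0.397 FPKM, with all broody libraries above all reproductive ones. CACNA1E reached 1.03 FPKM in reproductive 2, CACNA1F and CACNA1S stayed at or below 0.123 FPKM, and ATP2A1, the pump of fast skeletal muscle, at or below 0.219 FPKM.

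Near the limit, KCNE3, KCNJ15, KCNJ3, KCNK13 and KCNA2 passed with 3 libraries, while KCNJ11, at 0.788, 1.12 and 1.57 FPKM in broody and 0.637, 0.171 and 0.917 FPKM in reproductive libraries, and KCNK15 reached 1 FPKM in 2 libraries. The gene listed as KCNK3 (106038096) had 0.446, 0.196 and 0.224 FPKM in broody and 0.255, 0.745 and 0.294 FPKM in reproductive libraries. The reference gives this identifier as SLC35F6, so its name is uncertain, as is that of KCNA4, which the reference gives to another identifier. For ORAI1, KCNK17, KCNA2, KCNJ12 and KCNIP3 the reference gives the identifier no gene name, so these names rest on the deposited table alone.

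Genes of this group may share reads with genes whose spans overlap theirs. In the reference assembly KCNMB1 overlaps KCNIP1, a calcium-sensing accessory subunit of fast inactivating channels. KCNIP1 had 4.64, 26.5 and 9.75 FPKM in broody and 13.3, 7.18 and 16.3 FPKM in reproductive libraries. Among other overlaps there, CACNA1C overlaps DCP1B, ORAI1 overlaps MORN3, KCND2 overlaps TSPAN12, CACNA2D3 overlaps LRTM1 and KCNK2 overlaps an unnamed protein-coding gene. Only whole gene spans were compared and no strand setting is stated, so whether these genes share reads was not tested.

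Several members have more than 1 transcript in the table. KCNMA1 is listed with 34, of which 2 reached 1 FPKM, and the leading one held 90.2 to 95.8% of its level in every library. CACNB2 is listed with 11, and its leading transcript held 21.1 to 24.7% of the level in broody and 44.2 to 76.3% in reproductive libraries, without overlap. That transcript had 2.21, 3.08 and 2.59 FPKM in broody and 5.98, 12.8 and 6.26 FPKM in reproductive libraries. It was picked as leading by its mean over all 6 libraries. In the broody libraries a second transcript of CACNB2 had more, at 2.42, 3.67 and 2.75 FPKM. The picked transcript thus led only through the group in which it was high. Its shares and its difference of -1.30 (limma adjusted p = 0.0361 in the fit of leading transcripts) are therefore no support. The sum of the CACNB2 transcripts was not called. KCNG1, a silent subunit, had a second transcript at 5.47, 5.51 and 5.52 FPKM in broody libraries that was listed at 0 in all 3 reproductive libraries. It was picked after its values were seen and carries no test. In other members the leading transcript of one library was near or listed at 0 in another library of the same group. Among them were CACNA2D1, KCNA2, KCNIP1, KCNMB2, KCNQ5, KCNT2, KCNU1 and RYR3. Their transcript shares were thus not stable between libraries.

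Partner genes outside these families came from a list of 135 calcium handling and related channel genes, chosen with earlier results of these data known. Of these, 104 symbols were found and 74 genes tested, of which 16 were higher and 20 lower in broody ovaries. All genes tested gave 29.9% higher and 12% lower, against 21.6% and 27.0% on the list, whose median difference was -0.19. With median-ratio scaling the list had 8 higher and 31 lower, against 16.7% and 18.8% of all genes. Without broody 1, and likewise without broody 2, it had none, and with the replicate block 9 and 12, against 19.6% and 8.33% of all genes. Without broody 3, and likewise without reproductive 1, it had 8 higher and 16 lower, where all genes gave 16.9% and 9.48%, and 20.3% and 10.8%.

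ABCC9, the regulatory subunit that joins KCNJ8 in the vascular ATP-sensitive channel and lies next to it in the reference assembly, had 19.7, 25.2 and 34.7 FPKM in broody and 58.8, 43.8 and 60.6 FPKM in reproductive libraries. Its difference was -1.03 ± 0.23 (limma adjusted p = 0.0183). ABCC8, the counterpart known from mammalian beta cells, had 4.47, 5.76 and 5.77 FPKM in broody and 1.86, 2.58 and 3.30 FPKM in reproductive libraries and rose by 0.84 ± 0.20 (limma adjusted p = 0.0198). KCNJ11, its usual pore, was not tested. KCNJ8 and ABCC9 were thus both lower, each with no overlap between the groups.

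SLN, sarcolipin, an inhibitor of the reticulum pump, had 28.4, 42.8 and 25.2 FPKM in broody and 9.92, 7.62 and 12.5 FPKM in reproductive libraries and rose by 1.58 ± 0.24 (limma adjusted p = 0.0132). PLN, phospholamban, an inhibitor of the same pump that is named after its values were seen, had 6.01, 8.48 and 6.27 FPKM against 12.3, 22.9 and 11.9 FPKM, with a difference of -1.03 ± 0.27 (limma adjusted p = 0.0233). The pump ATP2A2 itself was not called, as given above. SARAF, a brake on store-operated entry, had 179, 170 and 141 FPKM in broody and 82.5, 45.7 and 85.2 FPKM in reproductive libraries and rose by 1.23.

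Other partners that rose most clearly were PLCB1, a phospholipase that makes inositol trisphosphate (0.88), JPH1, which ties the reticulum to the outer membrane (1.27), and PKD2L1, a cation channel (1.83). Those that fell were JPH2, the junction protein of heart muscle, with a difference of -1.71, and P2RX1, an ATP-gated cation channel of smooth muscle, with -1.87. TRPC1 and TRPC6, cation channels opened downstream of phospholipase C, had -0.79 and -1.66, and CAMK1D, a calmodulin-dependent kinase, -1.37. Their limma adjusted p lay between 0.0138 and 0.0179, and none of these genes overlapped between the groups. They were picked for their small p, so this adds no support. Of the 74 genes tested on the list 49 did not overlap, against 59.5% of all genes tested.

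**Figure D5:**
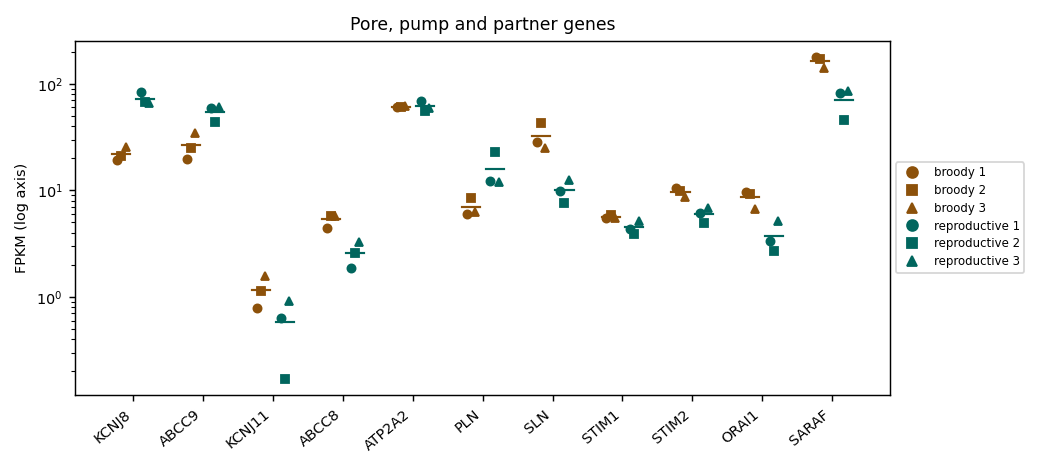
FPKM on a log axis in each of the 6 libraries for the ATP-sensitive channel genes KCNJ8, ABCC9, KCNJ11 and ABCC8, the pump ATP2A2 with its inhibitors PLN and SLN, and the store-operated genes STIM1, STIM2, ORAI1 and SARAF; symbols mark the library, and bars are group means. KCNJ8, ABCC9 and PLN lie lower in broody libraries, ABCC8, SLN, STIM2, ORAI1 and SARAF lie higher, and ATP2A2 overlaps.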

How the data were processed

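The table the authors deposited gives FPKM per transcript, 33089 of them, for 6 libraries. Per the submitters' processing notes HISAT2 and StringTie were used; neither has a version there. Sources used here do not give a genome build, annotation release or strandedness, and coordinates are left out. Without read counts the depth is unknown and count models do not apply. FPKM summed to 319866 to 346625 per library, and pairs of libraries shared at most 0.00718% identical values, so no library is a copy of another. This cannot show whether the libraries come from separate birds. Each was counted as 1 sample.

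Transcripts were summed per gene identifier. Names came from the deposited table for 101 members and from RefSeq's annotation of the assembly Taihu_goose_T2T_genome for 11. Genes of at least 1 FPKM in 3 libraries were fitted as log2(FPKM + 1) with limma 3.58.1 in R 4.3.3 (eBayes with a mean-variance trend, no covariate), two-sided, with Benjamini-Hochberg adjustment over all 11377 genes and a threshold of 0.05. Differences are broody minus reproductive, and they understate the changes of low genes. With 3 against 3, an exact permutation test of 1 gene cannot go below 0.1, so none was run. The script was tested on simulated data. Members and lists were chosen with earlier results of these data known. Values in every library are given for up to 12 called members with the largest decrease and 12 with the largest increase, and for 32 fixed genes, of which 28 were in the table. Up to 6 related genes per direction with the smallest p are named. Other values are given as ranges, or were added after being seen. Alternatives covered the pseudocount, filter, scaling, leading transcript, fit, replicate block and each library left out. A few genes are not reported here by name.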

Additional observations from a re-analysis of the deposited data

How the results depend on the processing

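Main values were 22 genes higher, 10 lower and a median difference of 0.08 among the tested channel and pump genes. Higher calls numbered 14 with median-ratio and 14 with upper-quartile scaling, 12 with leading transcripts only, and 10 with a filter of 5 FPKM, which tested 32 members and gave 5 lower. The median turned to -0.050 and -0.057 with median-ratio and upper-quartile scaling. Leaving out 1 library gave 0 to 23 higher, 0 to 12 lower and a median of 0.080 to 0.22. Among single genes, sign changes were found for genes without a call and for KCNU1. KCNU1 gave -0.23 and ATP2B4 -0.37 with leading transcripts only. ATP2B1, ATP2B4 and ITPR1 gave -0.21, -0.16 and -0.19 with median-ratio, -0.22, -0.17 and -0.20 with upper-quartile and -0.22, -0.15 and -0.19 with quantile scaling. With 1 library left out, ATP2B1 ranged from -0.22 to 0.29, ITPR1 from -0.029 to 0.18 and ATP2A2 from -0.068 to 0.085. The cause was not tested. No called gene lost its call with a pseudocount of 0.1, without the trend, or with the robust fit.

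Same-numbered libraries deviated from their group means with correlations of 0.11, -0.16 and -0.20 across genes, so the numbers were not taken as pairs. With the replicate block 16 were higher, 7 lower, the median was 0.08, and 10 calls ended. FPKM give no depth, which limits what can be said of genes near 1 FPKM.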

Other observations

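A few channel genes differed more within a group than between the groups. KCNH8, a slow voltage-gated potassium channel known from the nervous system, had 38.0, 15.8 and 5.03 FPKM in broody and 15.8, 6.88 and 2.57 FPKM in reproductive libraries. Its highest broody library stood 7.55 times above its lowest, and the range was 6.14 times in the reproductive group, the widest of the tested members. Its difference was 1.02 (limma adjusted p = 0.289), and with the replicate number as a block, although the numbers were not taken as pairs, the limma adjusted p was 0.0344. ORAI2, a store-operated pore, had 3.12, 3.09 and 18.8 FPKM in broody and 7.58, 10.2 and 16.9 FPKM in reproductive libraries, and KCNIP1 ranged over 5.73 times in the broody group.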
